A study of Homo sapiens with 44 samples.

Results

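The mitochondrial respiratory chain passes electrons from food-derived NADH and succinate to oxygen through complexes I to IV and uses the resulting proton gradient to make ATP in complex V. Most of its protein subunits are encoded in the nucleus, and a small core is encoded by mitochondrial DNA. Heart muscle is rich in mitochondria, and some subunits of complex IV exist as a widely expressed isoform and a heart and skeletal muscle isoform. The nuclear genes of this chain were followed by RNA sequencing of H1 human embryonic stem cells, an established cell line, as they were differentiated toward heart muscle.

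The gene set was chosen by symbol alone: protein-coding genes of GENCODE 29 outside mitochondrial DNA whose names mark subunits of complex I (NDUFA, NDUFB, NDUFC, NDUFS and NDUFV), complex II (SDHA to SDHD), complex III (UQCR), complex IV (COX4 to COX8) and complex V (ATP5). This gave 90 genes of 60499 in the deposited tables: 37 of complex I, 4 of complex II, 9 of complex III, 19 of complex IV and 21 of complex V. NDUFA4 and NDUFA4L2 were placed in complex IV, where NDUFA4 is now known to belong. The name rule also takes in ATP5IF1, an inhibitor of complex V, and ATP5S, a coupling factor, and it misses CYC1, a catalytic subunit of complex III. The set holds 2 readthrough genes, NDUFC2-KCTD14 and ATP5MF-PTCD1, and 59 members overlap another annotated gene. After a filter on low counts 87 members could be tested; COX7B2, COX8C and ATP5MGL could not.

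The 44 libraries came from wells of 12 groups. Pluripotent cells grew on laminin LN-521 (3 wells), and all other wells on LN-521 with LN-221. In those wells every group past day 0 had received the GSK3 inhibitor CHIR99021 at day 0, and every group past day 3 had also received IWP2, which blocks the release of Wnt ligands, at day 3. An insulin-free B-27-type supplement was used first and a CTS-grade supplement from day 11 onward. Groups were taken at days 0, 1, 3, 14, 20, 30 and 90 (3 wells each) and at days 5, 7, 9 and 11 (5 wells each), where the design text gives triplicates for day 11 but the sample labels give 5 wells. All wells derive from 1 cell line, so the p-values below measure the spread between its wells, which the labels call biological replicates.

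Libraries held 6937136 to 33498022 estimated counts, with RNA integrity numbers (RIN) of 7.4 to 10.0. Levels are given as rescaled TPM: the deposited TPM, a length-corrected transcript abundance, scaled to sum to 1000000 over nuclear protein-coding genes. Those genes took only 14.9% to 41.6% of the deposited TPM (libraries were of stranded total RNA), with 14.9% to 20.0% in the day 90 wells. The 8 cardiomyocyte markers (TNNT2, MYH6, MYH7, ACTN2, TNNI1, TNNI3, MYL7 and MYBPC3) summed to 132 to 172 rescaled TPM at day 0, 8902 to 27686 at day 9 and 33604 to 58541 at day 90. The 8 endoderm and liver markers (FOXA2, SOX17, AFP, TTR, APOA1, ALB, SERPINA1 and AHSG) summed to 1028 to 11041 at day 9 and 15.5 to 273 at day 90. In such bulk samples, fewer cells of a type and less RNA per cell cannot be told apart.

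The upstream sequences of the COX6A pair are shown because the muscle isoform COX6A2 had the widest range of group means among the members while its partner COX6A1 was present throughout. Both encode the same regulatory subunit of complex IV. COX6A2 lies on chromosome 16 (hg38 chr16:31427731-31428428, minus strand) and COX6A1 on chromosome 12 (chr12:120438090-120440742, plus strand). Each overlaps another annotated gene, AC026471.5 on the other strand for COX6A2 and AL021546.1 on the same strand for COX6A1. The sequences below are from RefSeq (GRCh38.p14), 5′ to 3′ on the strand of the gene, and end just before the GENCODE gene start: chr16:31428429-31428610 on the minus strand for COX6A2 and chr12:120437863-120438089 on the plus strand for COX6A1. Capitals mark an E-box (CAGCTG) and a match to the usual MEF2 consensus in COX6A2, and an NRF1 core (TGCGCA) and 2 GC boxes (GGGCGG or its complement) in COX6A1.
COX6A2: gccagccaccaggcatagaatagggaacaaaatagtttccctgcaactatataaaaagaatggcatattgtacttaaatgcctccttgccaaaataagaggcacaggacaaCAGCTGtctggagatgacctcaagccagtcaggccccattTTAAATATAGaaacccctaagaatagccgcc
COX6A1: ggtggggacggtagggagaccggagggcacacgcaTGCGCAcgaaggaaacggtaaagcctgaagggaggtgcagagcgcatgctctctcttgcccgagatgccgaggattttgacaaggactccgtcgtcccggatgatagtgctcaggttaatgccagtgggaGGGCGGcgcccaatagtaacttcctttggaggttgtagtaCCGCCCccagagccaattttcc

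RefSeq windows were found for 68 of the 90 members (81 windows, each 250 bases before the RefSeq start, searched on both strands). The NRF1 core TGCGCA was in 23.5% of the members' windows and 8.36% of the windows of all protein-coding genes. The ETS form CCGGAAG was in 22.2% and 10.8%, the GC box GGGCGG in 58.0% and 54.5%, and the estrogen-related receptor core AAGGTCA in 9.88% and 2.84%. The E-box CAGCTG was in 14.8% of the members' windows and 13.6% of those of protein-coding genes, and the MEF2 consensus in 4.94% and 2.05%. The members' share for MEF2 was 4 of 81 windows. A relaxed MEF2 form was in 2.47% and 2.01%, and a narrower form in 0% and 0.430%. The usual consensus was chosen after seeing the data. Some of these short motifs can overlap each other, and a match is a description of letters, not of a bound factor. NRF1, ETS factors of the GABP type and estrogen-related receptors are textbook regulators of respiratory genes.

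The summed level of the 90 genes followed a trough and a climb. It was 2.30% ± 0.0178 (SD, n = 3) of nuclear protein-coding TPM at day 0, 1.64% ± 0.0652 (n = 3) at day 3 and 1.56% ± 0.0264 (n = 5) at day 5. It was 2.24% ± 0.272 (n = 5) at day 9, 2.97% ± 0.368 (n = 3) at day 30 and 3.55% ± 0.147 (n = 3) at day 90. All wells of days 3 and 5 lay below all wells of every other group, and all 3 day 90 wells lay above every other well. This order depends on the denominator: relative to day 0 the day 90 sum was 1.54 times as high here, 1.29 times as a share of counts, and 0.877 times as a share of all deposited TPM.

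**Figure D1:**
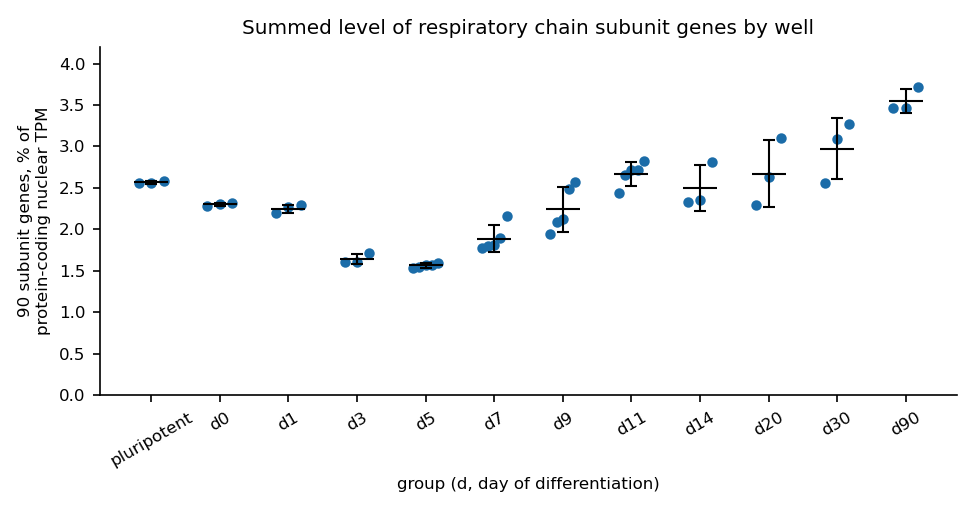
Summed level of the 90 subunit genes in each well (points), as percent of nuclear protein-coding TPM, by group; bars are the mean and SD over 3 or 5 wells. The day 3 and day 5 wells (1.53% to 1.72%) sit lowest and the day 90 wells (3.46% to 3.72%) highest.

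The complexes shared this course. Complex I summed to 0.671% ± 0.00798 (SD, n = 3) at day 0, 0.445% ± 0.0115 (n = 5) at day 5 and 1.03% ± 0.0404 (n = 3) at day 90. Complex IV went from 0.560% ± 0.00555 through 0.356% ± 0.0111 to 0.957% ± 0.0511 over the same days, and complex V from 0.797% ± 0.0173 through 0.572% ± 0.00863 to 1.13% ± 0.0512. Complex II, whose 4 subunits also serve the citric acid cycle, went from 0.0382% ± 0.000268 at day 0 to 0.0651% ± 0.0124 at day 90. Among the 82 members with a mean of at least 10 rescaled TPM over the groups, the lowest group mean fell at day 5 for 47 and at day 3 for 24, and the highest fell at day 90 for 58. The ratio of highest to lowest group mean had a median of 2.51. It was smallest for NDUFS4 (1.41), an accessory subunit of complex I.

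**Figure D2:**
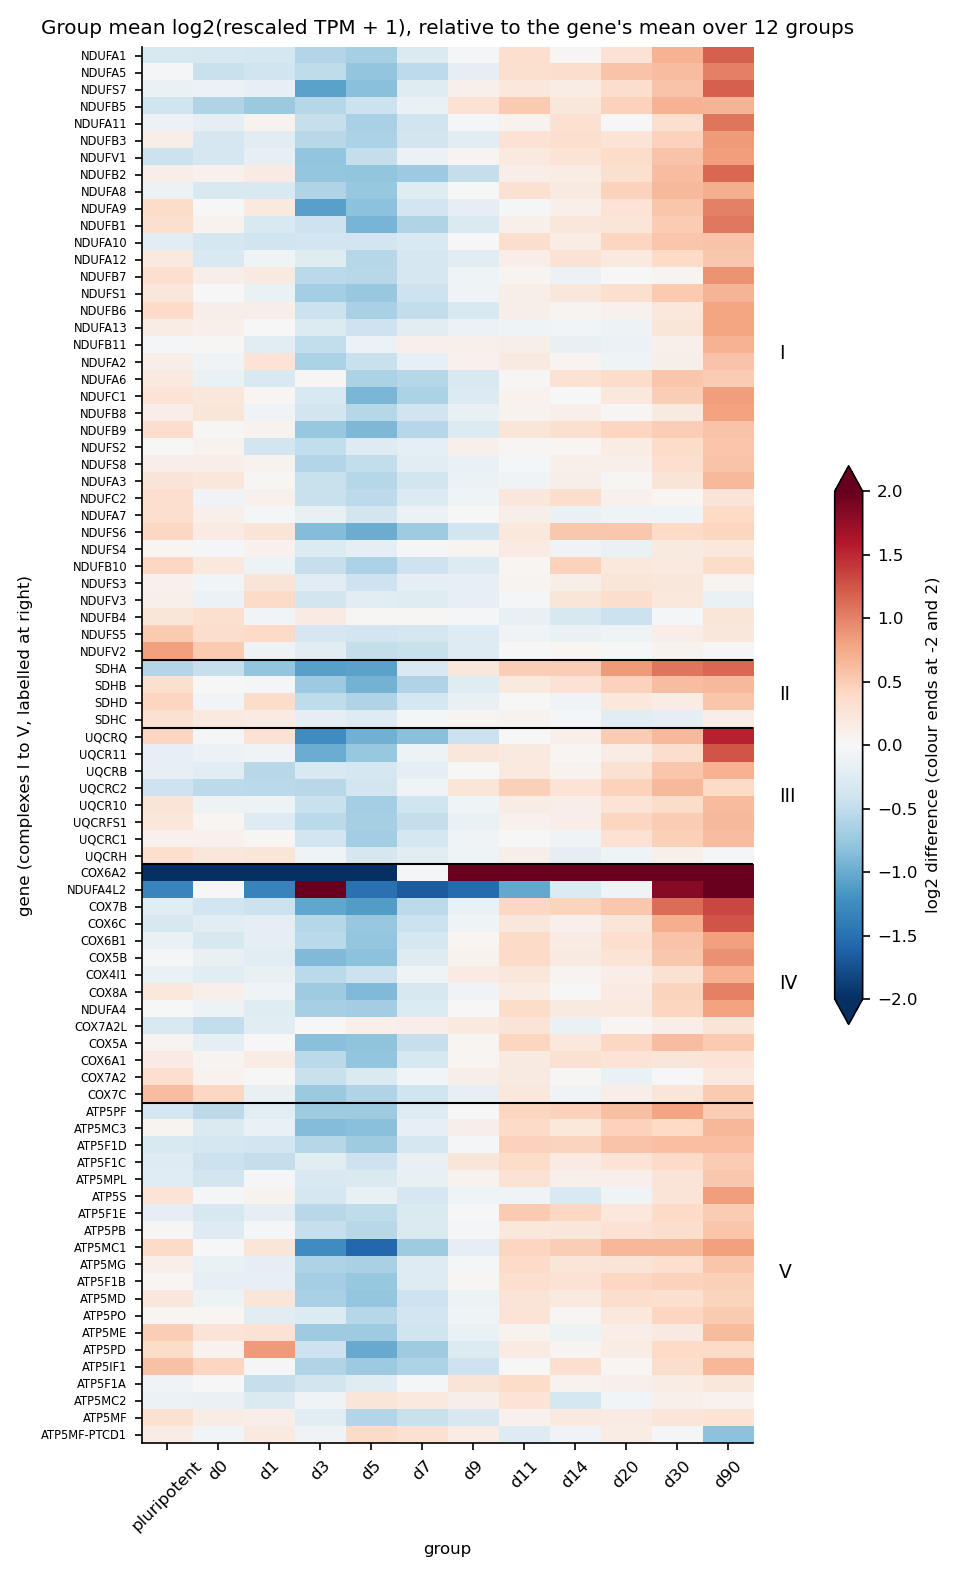
Group mean log2(rescaled TPM + 1) of the 82 members with a mean of at least 10 rescaled TPM, each relative to its own mean over the 12 groups; rows are genes ordered within complexes I to V, columns are groups, and colour ends at -2 and 2. Most rows are blue at days 3 and 5 and red at day 90, with COX6A2 and NDUFA4L2 changing most.

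Between day 0 and day 3, as cells left pluripotency, subunit genes of every complex fell and 1 member, NDUFA4L2, rose. Of 87 members tested, 29 were lower and 1 higher at day 3 (edgeR's quasi-likelihood test, adjusted p under 0.05). Over all 22955 genes tested, 12% were called lower and 13.2% higher. By at least 2-fold, 5 members were lower and 1 higher, against 8.76% and 7.81% of all genes. The members' median log2 change was -0.42, against 0.02 for all genes. Other protein-coding genes whose longest transcript is at most 1000 bases had a median of -0.16, and members of that length -0.49. The part of transcript length was not tested. Called lower were 13 of 37 complex I genes, 2 of 4 in complex II, 3 of 9 in complex III, 7 of 17 in complex IV and 4 of 20 in complex V. Leaving out any 1 of the 6 wells lowered the count of 29 to between 14 and 17. Fitting the 6 wells alone raised it to 59. The number of all genes called lower moved the same way. It was 2765 in the main fit, 1830 to 2050 with 1 well left out, and 5493 of 17912 with the 6 wells alone. With the sequencing lane as a term, 18 members were called lower, while the count over all genes was 2641. On deposited TPM, limma called 1 member lower, and 70.0% of all calls were higher, against 52.2% here.

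UQCRQ, a small subunit of complex III, stood at 253, 246 and 270 rescaled TPM in the day 0 wells and at 138, 105 and 91.2 in the day 3 wells, with no overlap. Its log2 change was -1.08 (SE 0.29, edgeR adjusted p = 0.00497), and without day 3 replicate 3 the adjusted p was 0.0587. ATP5MC1 encodes a copy of the membrane ring subunit c of complex V. It went from 174, 164 and 188 to 84.6, 66.7 and 69.4 rescaled TPM, a log2 change of -1.31 (SE 0.27, edgeR adjusted p = 0.000346). Its paralogs encode the same mature protein and were not called: ATP5MC2 had a log2 change of 0.12 (SE 0.25, edgeR adjusted p = 0.786) and ATP5MC3 of -0.48 (SE 0.21, edgeR adjusted p = 0.088). Whether ATP5MC1 differed from its paralogs was not tested.

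COX7C, a complex IV subunit and the most abundant member of that complex, went from 1397, 1413 and 1392 rescaled TPM at day 0 to 594, 598 and 686 at day 3. The groups did not overlap, with a log2 change of -1.13 (SE 0.22, edgeR adjusted p = 9.94e-05). ATP5IF1, which inhibits ATP hydrolysis by complex V, fell by 0.90 on the log2 scale (SE 0.18, edgeR adjusted p = 0.000178), from 414, 394 and 413 rescaled TPM to 210.1, 192 and 198, again with no overlap. COX6B2, known as a testis isoform of a complex IV subunit, had 7.35, 11.8 and 12.3 rescaled TPM at day 0 and 0.613, 0.653 and 1.66 at day 3 (log2 change -2.86, SE 0.71, edgeR adjusted p = 0.0024). Its widely expressed partner COX6B1 was not called (-0.16, SE 0.21, edgeR adjusted p = 0.62).

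NDUFA4L2, a paralog of NDUFA4 known as a hypoxia-induced gene, moved the other way. It stood at 3.43, 5.52 and 5.83 rescaled TPM at day 0 and at 15.3, 33.4 and 30.8 at day 3, and was back between 0.695 and 1.62 in the 5 wells of day 5. The rise from day 0 to day 3 was 2.47 on the log2 scale (SE 0.42, edgeR adjusted p = 1.7e-05). Of 10 hypoxia response genes, 3 rose over the same step (VEGFA, NDRG1 and PDK1) and EGLN3 fell; VEGFA, an angiogenic factor, rose by 2.13 (SE 0.34, edgeR adjusted p = 8.12e-06) and EGLN3, an oxygen-sensing hydroxylase, fell by 1.65 (SE 0.29, edgeR adjusted p = 3.34e-05). Their part in the NDUFA4L2 change was not tested.

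From day 3 to day 9, 33 subunit genes rose, spread over all 5 complexes, and NDUFA4L2 fell. Of 87 members, 33 were higher and 1 lower at day 9 (edgeR's quasi-likelihood test, adjusted p under 0.05), where 17.3% of all genes were called higher and 18.6% lower. By at least 2-fold, 4 were higher and 1 lower, against 12.3% and 8.88% of all genes. The median log2 change was 0.35, against 0.02 for all genes. Called higher were 9 of 37 in complex I, 2 of 4 in complex II, 2 of 9 in complex III, 8 of 17 in complex IV and 12 of 20 in complex V. Over this step 7 of 8 cardiomyocyte, 6 of 8 endoderm and liver, 7 of 8 fibroblast and smooth muscle and 4 of 6 endothelial markers also rose, and 5 of 5 cycling genes fell; their part was not tested. This comparison shares its day 3 wells with the one before. Without any 1 day 3 well, or without day 9 replicate 1 or 10, the count of 33 was 13 to 17. Over all genes these fits called 2986 to 3760 higher, against 3965 in the main fit. With the sequencing lane as a term, 20 members and 3679 of all genes were called higher. On deposited TPM without rescaling, limma called 1 higher and 20 lower, with the median of all genes shifted by -0.59 and 12.8% of all calls higher, against 48.1% here.

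SDHA, the catalytic flavoprotein of complex II, rose most among members present in both groups. It stood at 53.0, 51.0 and 49.2 rescaled TPM at day 3 and at 106 to 144 (median 135) at day 9, with no overlap. Its log2 change was 1.23 (SE 0.20, edgeR adjusted p = 7.31e-06). SDHB, the iron-sulfur subunit, rose by 0.39 (SE 0.15, edgeR adjusted p = 0.0389) with overlapping wells; it was not called without any 1 day 3 well or without day 9 replicate 1, 2 or 10, and fell by 0.31 in limma on deposited TPM. The membrane anchors SDHC and SDHD were not called, at -0.07 (SE 0.11, edgeR adjusted p = 0.644) and 0.20 (SE 0.18, edgeR adjusted p = 0.407). NDUFS7, an iron-sulfur subunit of complex I, rose by 1.03 (SE 0.24, edgeR adjusted p = 0.000604), from 51.2 ± 5.52 (SD, n = 3) to 117 ± 19.3 (n = 5). ATP5MC1 rose by 1.12 (SE 0.25, edgeR adjusted p = 0.00052), and ATP5MC3 by 0.84 (SE 0.19, edgeR adjusted p = 0.00063).

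COX6A2 appeared in this interval. The day 3 wells held 1, 1 and 0 counts and the 5 wells of day 5 held 1 to 3, while the day 9 wells stood at 36.1, 66.9, 79.5, 83.5 and 126 rescaled TPM. Day 9 was at least 93.9-fold higher than day 3, taking 3 counts per well as the floor (such floors cover counting error only). The gene also had 15, 7 and 7 counts at day 0, at least 2.84-fold above the day 3 floor; that fall was called (edgeR adjusted p = 0.0349) but not without day 0 replicate 1 (adjusted p = 0.131) or without any 1 of the day 3 wells (adjusted p = 0.0737, 0.0800 and 0.132). NDUFA4L2 fell by 4.90 (SE 0.39, edgeR adjusted p = 2.68e-12) from its day 3 level to 1.02 ± 0.437 rescaled TPM (SD, n = 5).

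**Figure D3:**
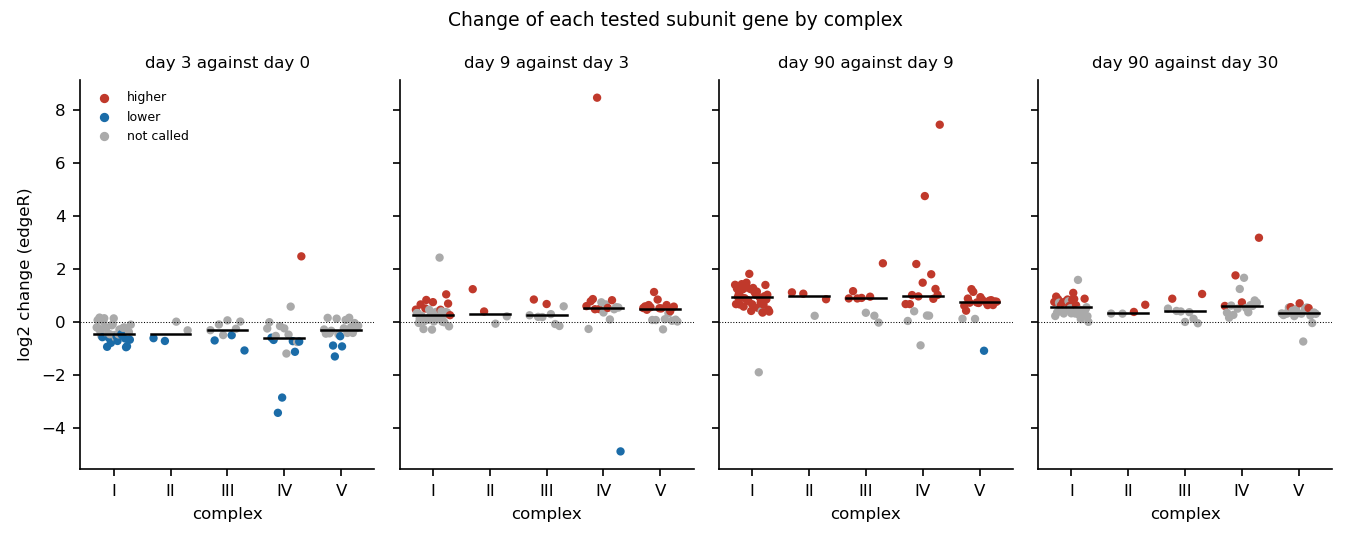
Log2 change (edgeR) of each of the 87 tested members in 4 comparisons, by complex; black lines are medians, and colours show calls at an adjusted p under 0.05. Most points lie below 0 for day 3 against day 0 and above 0 in the other 3 panels; calls are densest for day 90 against day 9 (73 higher, 1 lower).

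Set against day 0, the day 9 wells showed a mixed picture: 9 members were higher and 13 lower of 87 (edgeR, adjusted p under 0.05), where 24.1% of all genes were called higher and 23.5% lower. By at least 2-fold, 1 was higher and 2 lower, against 17.1% and 14.6% of all genes. The median log2 change was -0.06, against 0.08 for all genes. COX6A2 led the rises with 5.02 (SE 0.67, edgeR adjusted p = 8.12e-08), followed by NDUFB5, a complex I accessory subunit (0.87, SE 0.18, edgeR adjusted p = 0.000177), UQCRC2, a core protein of complex III (0.72, SE 0.17, edgeR adjusted p = 0.000661), and COX7A2L, which joins complexes III and IV into supercomplexes (0.66, SE 0.21, edgeR adjusted p = 0.00874). Besides COX6B2 and NDUFA4L2, the largest falls were in NDUFV2, an electron-transferring subunit of complex I (-0.85, SE 0.13, edgeR adjusted p = 8.87e-07), ATP5IF1 (-0.83, SE 0.16, edgeR adjusted p = 2.98e-05) and COX7C (-0.66, SE 0.19, edgeR adjusted p = 0.00353). Without any 1 day 0 well, or without day 9 replicate 4, 8 were called lower, and without day 9 replicate 10, 21 were. Over all genes these fits called 4631 to 5220 and 5229 lower, against 5404 in the main fit. limma on deposited TPM called 26 lower and 1 higher, with 29.5% of all calls higher, against 50.6% here.

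The longest step, from day 9 to day 90, held the broadest change. Of 87 members, 73 were higher at day 90 and 1 lower (edgeR's quasi-likelihood test, adjusted p under 0.05), and 30 of the rises were at least 2-fold. Over all genes 18.7% were called higher, 19.7% lower, 11.9% higher by at least 2-fold and 12% lower by at least 2-fold. The members' median log2 change was 0.85, against -0.02 for all genes. Called higher were 35 of 37 in complex I, 3 of 4 in complex II, 6 of 9 in complex III, 12 of 17 in complex IV and 17 of 20 in complex V. Many members have short transcripts. Other protein-coding genes whose longest transcript is at most 1000 bases had a median of 0.01, and members of that length 0.88. The part of transcript length was not tested.

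Over the same step 7 of 8 cardiomyocyte markers rose and MYH6 fell. Of the endoderm and liver markers 7 of 8 fell, and of the endothelial markers 6 of 6. Of 8 fibroblast and smooth muscle markers 4 rose and 0 were called lower. Their sum was 2164 to 3042 rescaled TPM at day 9 and 1107 to 6936 at day 90. RIN was 8.0 to 9.5 at day 90 against 8.9 to 10.0 at day 9. The part of these markers and of RIN in the members' rise was not tested. Leaving out 1 well at a time gave 63 to 74 members called higher. Over all genes these fits called 3569 to 4213 higher, against 4292 in the main fit. On deposited TPM, limma called 19 higher and 1 lower, with the median of all genes shifted by -0.47. On rescaled TPM it called 71 higher and 1 lower, with a shift of -0.22. Of all calls 48.7% were higher in edgeR, 14.5% in limma on deposited TPM and 33.6% on rescaled TPM.

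In complex III, UQCRQ rose most. It stood at 152 to 228 rescaled TPM (median 206) in the 5 day 9 wells and at 805, 707 and 777 in the day 90 wells, a log2 change of 2.21 (SE 0.25, edgeR adjusted p = 6.35e-09). The gene lies at chr5:132866560-132868031 and overlaps GDF9 on the other strand, and the strand setting of the counting is not given in the sources used here. UQCRH, the hinge protein and the most abundant complex III member, was not called (0.23, SE 0.19, edgeR adjusted p = 0.36). Its retrocopy UQCRHL stood at 7.84 ± 0.96 (SD, n = 3) against 9.02 ± 0.59 (n = 5); reads of the 2 genes are hard to separate, so both values are uncertain.

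In complex II, SDHA rose again, from 106 to 144 (median 135) at day 9 to 176, 342 and 216 at day 90, a log2 change of 1.11 (SE 0.19, edgeR adjusted p = 9.46e-06). SDHB rose by 1.06 (SE 0.14, edgeR adjusted p = 1.94e-07) and SDHD by 0.85 (SE 0.17, edgeR adjusted p = 0.000145). SDHC was not called (0.22, SE 0.11, edgeR adjusted p = 0.0983). In complex I, NDUFS7 rose by 1.39 (SE 0.22, edgeR adjusted p = 3.2e-06) and NDUFB7 by 1.15 (SE 0.24, edgeR adjusted p = 0.000149). NDUFS5, the most abundant complex I member, rose by 0.64 (SE 0.18, edgeR adjusted p = 0.00384) and NDUFV2 by 0.46 (SE 0.13, edgeR adjusted p = 0.00467); neither was called without day 90 replicate 2, nor was NDUFV2 without day 90 replicate 5, and NDUFV2 was -0.10 in limma on deposited TPM.

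In complex V, ATP5IF1 rose by 1.23 (SE 0.16, edgeR adjusted p = 4.45e-08), from 227 ± 25.4 (SD, n = 5) to 480 ± 58.8 rescaled TPM (n = 3). ATP5MC1 rose by 1.13 (SE 0.24, edgeR adjusted p = 0.000176) and ATP5MC3 by 0.73 (SE 0.18, edgeR adjusted p = 0.00145), while ATP5MC2 was not called (0.11, SE 0.23, edgeR adjusted p = 0.749). ATP5F1A, the catalytic-head alpha subunit and the most abundant member of complex V, was not called either (0.11, SE 0.20, edgeR adjusted p = 0.7). The only member called lower was the readthrough ATP5MF-PTCD1 (-1.10, SE 0.25, edgeR adjusted p = 0.000501), whose reads are shared with ATP5MF and PTCD1 and so are uncertain. The other readthrough, NDUFC2-KCTD14, was not called (-1.91, SE 1.43, edgeR adjusted p = 0.311).

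Complex IV held the tissue isoforms. COX6A2 stood at 36.1 to 126 rescaled TPM (median 79.5) at day 9 and at 204, 528 and 233 at day 90, a log2 change of 2.18 (SE 0.47, edgeR adjusted p = 0.000267). COX6A1 was not called (0.40, SE 0.18, edgeR adjusted p = 0.0813), at 603 ± 97.7 (SD, n = 5) and 708 ± 107 (n = 3). COX6A2 thus made up 0.380% ± 0.195 (n = 3) of the pair at day 0, 11.3% ± 3.30 (n = 5) at day 9 and 30.5% ± 14.6 (n = 3) at day 90.

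The log2 ratio of COX6A2 to COX6A1 (on rescaled TPM + 1) was higher by 4.56 at day 9 than at day 0 and by 1.76 at day 90 than at day 9. Both differences had p = 0.0357 in a two-sided exact permutation test, the smallest that 3 against 5 wells can give, and an adjusted p of 0.0476 over the 8 ratio tests (Benjamini-Hochberg). At day 9, replicate 2 had the lowest COX6A2 (36.1), the lowest cardiomyocyte sum (8902) and the highest endoderm sum (11041). At day 11, replicates 1 and 2 had 42.6 and 25.3 rescaled TPM of COX6A2 and cardiomyocyte sums of 14469 and 9032, with endoderm sums of 8261 and 14870, whereas replicates 5, 6 and 7 had 188, 181 and 191, cardiomyocyte sums of 29739 to 32456 and endoderm sums of 401 to 502. RIN at day 11 ran from 8.0 to 9.5. At days 9, 14 and 90 the well with the highest cardiomyocyte sum also had the highest COX6A2. Day 90 replicate 4 had a sum of 58541 and 528 rescaled TPM of COX6A2. The other day 90 wells had 33604 and 204, and 36829 and 233. At days 7, 11, 20 and 30 the well with the highest cardiomyocyte sum was not the one with the highest COX6A2. Day 20 replicate 3 had a sum of 23987 and 94.3 rescaled TPM of COX6A2, against 17490 and 135 in replicate 2. Day 30 replicate 1 had 37821 and 100.1, against 30804 and 172 in replicate 10. What part cell makeup had in the COX6A2 level was not tested.

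COX7A1, the heart and skeletal muscle isoform of another complex IV subunit (chr19:36150922-36152869), came later. Its day 9 wells held 1 to 21 counts (0.112 to 3.75 rescaled TPM, median 1.60), and the day 90 wells stood at 25.8, 39.5 and 47.3 rescaled TPM. The log2 change was 4.75 (SE 0.82, edgeR adjusted p = 1.2e-05), and the partner COX7A2 was not called (0.24, SE 0.19, edgeR adjusted p = 0.345). The COX7A1 to COX7A2 ratio was higher by 3.84 at day 90 than at day 9 (two-sided exact permutation p = 0.0357, adjusted 0.0476) but moved by -0.38 between day 0 and day 9 (exact permutation p = 0.5). At day 90 COX7A1 was still 6.47% ± 1.73 (SD, n = 3) of the pair. The 4 skeletal muscle markers MYOD1, MYOG, MYF5 and PAX7 summed to 0.109 to 0.586 rescaled TPM at day 9 and 1.75 to 2.41 at day 90. Only 2 of them could be tested, and MYOG was called higher at day 90. Their part in the COX7A1 change was not tested.

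NDUFA4L2 (chr12:57234903-57240715, overlapping SHMT2 on the other strand) had the largest change. It stood at 0.553 to 1.67 rescaled TPM (median 0.976) at day 9 and at 87.1, 218 and 147 at day 90, a log2 change of 7.44 (SE 0.42, edgeR adjusted p = 2.06e-16). NDUFA4 rose by 1.02 (SE 0.22, edgeR adjusted p = 0.0003), from 228 ± 23.6 (SD, n = 5) to 398 ± 72.8 (n = 3). The ratio of NDUFA4L2 to NDUFA4 was higher by 5.37 at day 90 than at day 9 and moved by -1.65 from day 0 to day 9 (exact permutation p = 0.0357, adjusted 0.0476, for both).

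Of the 10 hypoxia response genes, 8 rose from day 9 to day 90 and none was called lower. CA9, a carbonic anhydrase, rose by 5.87 (SE 0.53, edgeR adjusted p = 2.74e-11) and EGLN3 by 3.15 (SE 0.25, edgeR adjusted p = 1.68e-12). NDUFA4L2 is also known from pericytes: of 6 pericyte markers 3 rose and NOTCH3 fell, and their sum was 207 to 330 rescaled TPM at day 9 and 149 to 253 at day 90. The part of either list in the NDUFA4L2 change was not tested.

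**Figure D4:**
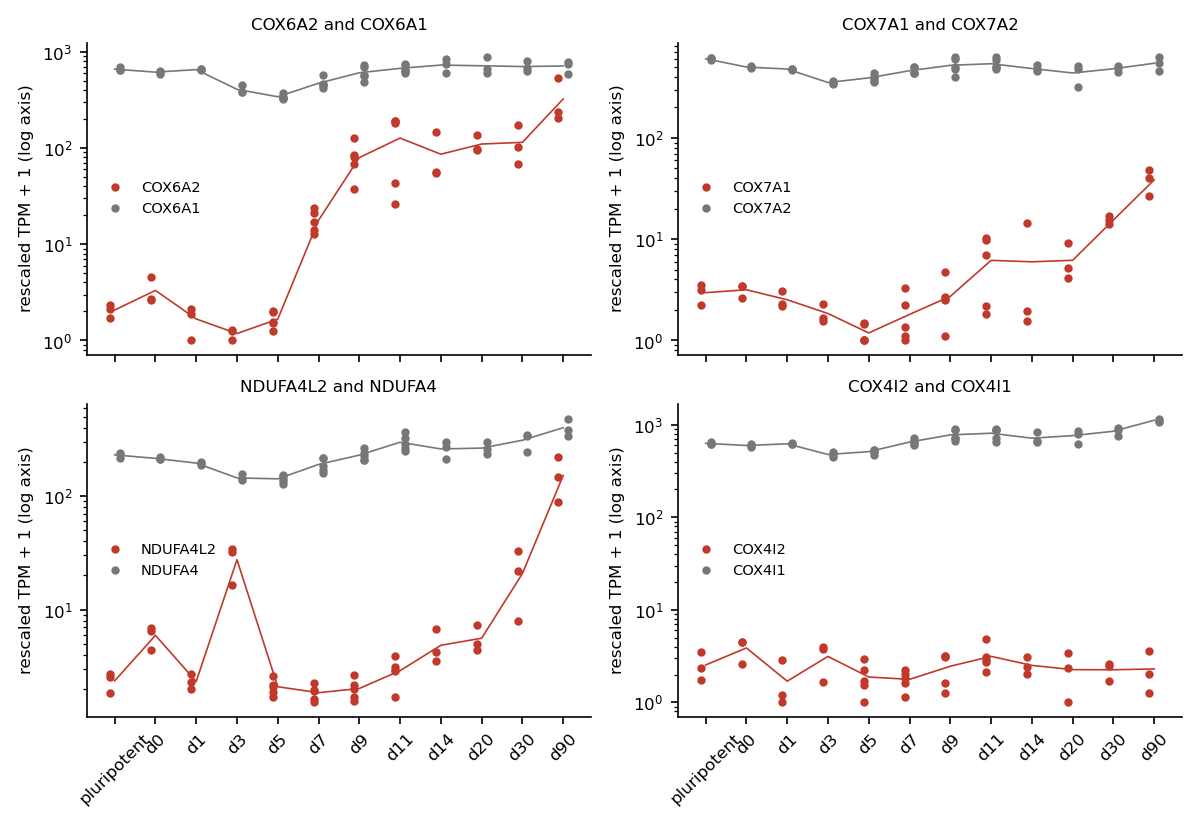
Rescaled TPM + 1 (log axis) of 4 isoform or paralog pairs in every well (points) by group, with lines through group means. The muscle isoforms COX6A2 and COX7A1 and the paralog NDUFA4L2 (red) are higher at day 90 than at day 9 while their partners (grey) stay within a narrower band; COX4I2 stays low, and NDUFA4L2 has a separate peak at day 3.

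The remaining pairs stayed with their common form. COX4I2, the lung isoform of COX4, had at most 3.53 rescaled TPM in the wells of days 0, 9 and 90, while COX4I1 stood at 595 ± 18.8 (SD, n = 3), 775 ± 103 (n = 5) and 1116 ± 42.4 (n = 3). Their log2 ratio moved by -1.08 from day 0 to day 9 (exact permutation p = 0.0357, adjusted 0.0476); with a pseudocount of 0.1 or 0.01 the p was 0.0714, and on deposited TPM it was 0.214. From day 9 to day 90 it moved by -0.67 (exact permutation p = 0.143, adjusted 0.163). COX7B rose by 1.79 (SE 0.18, edgeR adjusted p = 3.08e-10) and COX8A by 1.24 (SE 0.28, edgeR adjusted p = 0.000514) from day 9 to day 90. Their paralogs COX7B2 and COX8C were among the members too low to test.

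Day 90 was also set against day 30. Here 25 of 87 members were higher and 0 lower (edgeR's quasi-likelihood test, adjusted p under 0.05), where 4.03% of all genes were called higher and 4.49% lower. At an unadjusted p under 0.05, 50 were higher and 1 lower. DESeq2 called 40 members higher and 1 lower, and 1406 of all genes higher. By at least 2-fold in the main fit, 4 were higher and 0 lower, against 2.65% and 2.44% of all genes. The median log2 change was 0.47, against -0.07 for all genes. Other protein-coding genes whose longest transcript is at most 1000 bases had a median of 0.26, and members of that length 0.50. The part of transcript length was not tested. The count was 3 without day 30 replicate 3, 8 without day 90 replicate 2, 5 without day 90 replicate 5, and 0 when only the 6 wells were fitted. Over all genes these fits called 497, 603, 631 and 1 higher, in that order, against 924 in the main fit. The fit of 6 wells thus called only 1 of 17049 genes higher and cannot tell the members from other genes. The main fit instead uses a spread shared over all 12 groups, not that of these 6 wells alone. Late wells differed more: the members' summed share was 2.56% to 3.27% at day 30 and 3.46% to 3.72% at day 90. At day 0 it was 2.28% to 2.31%. On deposited TPM, limma called 1 higher and 7 lower, with the median of all genes shifted by -0.58. Of all calls 47.3% were higher in edgeR, 1.98% in limma on deposited TPM and 20.4% on rescaled TPM. This comparison shares its day 90 wells with the one before. With the sequencing lane as a term, 7 members and 546 of all genes were called higher. With no filter on low counts, 13 members and 690 of 46084 genes were. The day 90 wells sat in lanes 4 and 5, the day 30 wells in lanes 2, 3 and 4.

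Day 30 replicate 3 stood apart in its marker sums, with 14964 rescaled TPM of cardiomyocyte markers against 30804 and 37821 in the other day 30 wells, and 575 of endoderm and liver markers. Day 30 replicate 10 had a RIN of 7.4 and 11715812 counts; RIN was 8.0 to 9.5 at day 90. Of the marker lists, 1 of 8 cardiomyocyte markers (TNNI3) rose from day 30 to day 90, 1 of 8 endoderm and liver markers (SOX17) fell, and 3 of 6 endothelial markers fell, with endothelial sums of 54.9 to 130.2 at day 30 and 29.7 to 77.3 at day 90. Their part in the members' change was not tested.

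NDUFA4L2 stood at 31.6, 20.7 and 6.99 rescaled TPM in the day 30 wells, below all day 90 wells, and its log2 change to day 90 was 3.17 (SE 0.42, edgeR adjusted p = 6.14e-06). COX6A2 stood at 100.1, 172 and 67.2 at day 30 and rose by 1.75 (SE 0.55, edgeR adjusted p = 0.0396). UQCRQ rose by 1.05 (SE 0.29, edgeR adjusted p = 0.0191) and NDUFB7 by 1.09 (SE 0.27, edgeR adjusted p = 0.00937). With only the 6 wells fitted none of these 4 calls held, but that fit called only 1 of 17049 genes higher. Those of COX6A2, UQCRQ and NDUFB7 were also lost without day 30 replicate 3 or day 90 replicate 5, that of COX6A2 without day 30 replicate 1 or day 90 replicate 4, and that of UQCRQ without day 30 replicate 10 or day 90 replicate 2. COX7A1 was not called (1.66, SE 0.86, edgeR adjusted p = 0.241), although its day 30 wells, with 82, 38 and 77 counts, all lay below those of day 90 in rescaled TPM.

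The factors that build and control the chain were read from lists chosen with earlier results of these data known. Over all genes 18.7% were called higher and 19.7% lower from day 9 to day 90. Of 14 complex I assembly factors, 7 rose from day 9 to day 90 and none was called lower; NDUFAF3 rose by 1.62 (SE 0.21, edgeR adjusted p = 1.12e-07) and NUBPL, an iron-sulfur carrier, by 1.18 (SE 0.18, edgeR adjusted p = 1.57e-06). Of 31 assembly factors of complexes II to V, 11 rose and none was called lower, led by COX20 (1.83, SE 0.18, edgeR adjusted p = 3.27e-10) and COX14 (1.68, SE 0.26, edgeR adjusted p = 1.57e-06). Among 16 electron carriers, ubiquinone synthesis enzymes and subunits outside the name rule, 8 rose and COQ5 fell. Cytochrome c (CYCS) rose by 1.55 (SE 0.20, edgeR adjusted p = 9.56e-08), and CYC1 was not called (0.53, SE 0.22, edgeR adjusted p = 0.0578).

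From day 0 to day 3, 3 of the 14 complex I assembly factors and 5 of the 31 others fell and none was called higher, where 12% of all genes were called lower and 13.2% higher. CYCS fell by 0.84 (SE 0.23, edgeR adjusted p = 0.00628) and CYC1 by 0.70 (SE 0.26, edgeR adjusted p = 0.0392) over that step. Of the 13 subunits encoded by mitochondrial DNA, 10 rose from day 9 to day 90 (median log2 change 2.04), and 0 were called in the other 4 comparisons by edgeR or DESeq2, with 0 at an unadjusted p under 0.05 in edgeR. Their fits were imprecise, with SEs of 0.50 to 1.40 for day 3 against day 0, and a difference from the nuclear-encoded members was not tested. Their share of counts was 0.299% ± 0.0607 (SD, n = 3) at day 0 and 1.28% ± 0.630 (n = 3) at day 90. It varied most at days 14 to 30, from 0.511% to 3.72% between wells.

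Of 18 regulators of respiratory genes, 5 rose and 4 fell between day 0 and day 9, where 24.1% of all genes were called higher and 23.5% lower. The rises were PERM1, PPARGC1A, ESRRG, ESRRB and PPARA, and the falls MYC, PPARGC1B, TFB1M and TFAM. From day 3 to day 9, 5 rose and 4 fell, against 17.3% and 18.6% of all genes. Here PPARGC1A, ESRRB, PPARA, ESRRG and ESRRA rose, and TFB1M, TFAM, GABPA and GABPB1 fell. Between day 9 and day 90, 5 rose and 3 fell, against 18.7% and 19.7% of all genes. Over that step PPARGC1B, PPARD, ESRRG, ESRRB and PPARGC1A rose, and MYC, POLRMT and YY1 fell. PPARGC1A, the coactivator PGC-1 alpha, stood at 2.06 to 2.47 rescaled TPM at day 0, 0.346 to 0.544 at day 3 and 13.1 to 26.7 at day 9. It fell by 2.05 from day 0 to day 3 (SE 0.50, edgeR adjusted p = 0.00197) and rose from day 3 to day 9 (log2 change 5.60, SE 0.51, edgeR adjusted p = 5.01e-11). The estrogen-related receptor ESRRG rose in both of those steps, by 0.96 (SE 0.34, edgeR adjusted p = 0.0322) and 1.78 (SE 0.31, edgeR adjusted p = 1.88e-05), and by 1.48 from day 9 to day 90 (SE 0.28, edgeR adjusted p = 4.29e-05).

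ESRRA rose from day 3 to day 9 (0.93, SE 0.34, edgeR adjusted p = 0.0304) and was not called in the other 4 comparisons, among them day 9 against day 0 (0.77, SE 0.34, edgeR adjusted p = 0.0575). MYC, a growth regulator, fell by 1.88 from day 0 to day 9 (SE 0.47, edgeR adjusted p = 0.00101) and by 1.33 from day 9 to day 90 (SE 0.52, edgeR adjusted p = 0.039). PPARGC1B, the related coactivator, fell by 1.24 (SE 0.37, edgeR adjusted p = 0.00547) and then rose by 2.11 (SE 0.37, edgeR adjusted p = 1.56e-05) over those steps. PPARD, a fatty acid sensing receptor, rose by 2.07 from day 9 to day 90 (SE 0.16, edgeR adjusted p = 6.3e-13).

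**Figure D5:**
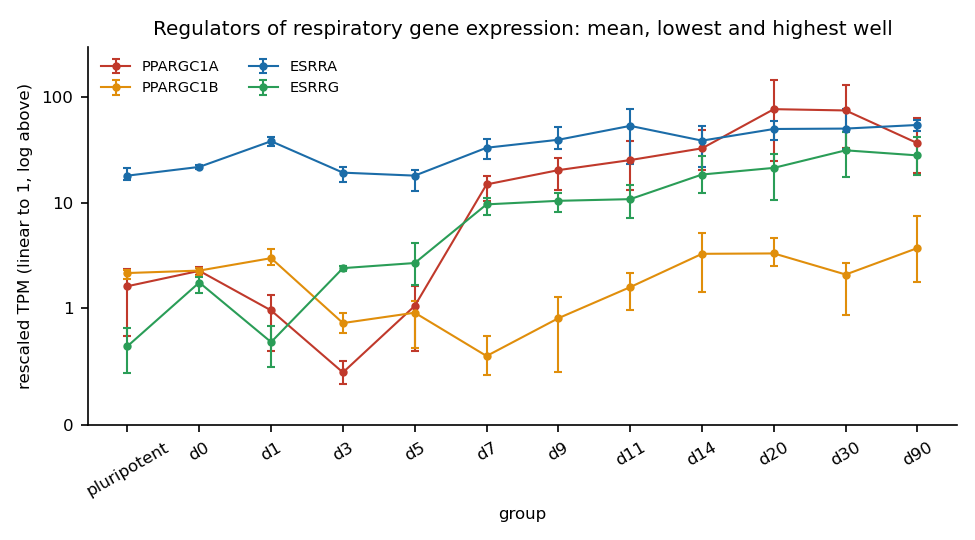
Mean rescaled TPM of 4 regulators by group (points), with bars from the lowest to the highest well; the axis is linear to 1 and logarithmic above. PPARGC1A is lowest at day 3 (0.346 to 0.544) and stands at 13.1 to 26.7 at day 9.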

How the data were processed

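RNA sequencing of stranded total RNA was deposited for 44 libraries. Per the submitters' processing notes, cutadapt, STAR 2.5.2b and RSEM 1.2.31 were used with build hg38; their settings, the annotation release and the strandedness of counting are not given in the sources used here. The authors deposited estimated counts and TPM per Ensembl gene, and a sample sheet with the RIN score of each RNA, its sequencing lane and its sequencing batch, which was the same (1) for all 44 libraries. RSEM shares reads between similar genes, so members with close copies or overlapping genes are less certain.

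Gene names and types were taken from GENCODE 29. Estimated counts were rounded and fitted with edgeR 4.0.16 (filterByExpr, TMM, quasi-likelihood test), with 1 mean per group over all 44 libraries; p-values were Benjamini-Hochberg adjusted over 22955 genes. TPM were rescaled to sum to 1000000 over nuclear protein-coding genes for levels, shares and isoform ratios (pseudocount 1), and ratios were compared by two-sided exact permutation tests (scipy 1.17.1). The script was tested on simulated data. Alternatives used DESeq2 1.42.0, limma 3.58.1 (log2 of TPM + 1), other filters and scalings, a lane term and leaving out wells.

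Named members were, per comparison, the 4 largest called rises and falls with at least 10 rescaled TPM in the higher group, all isoform or paralog pairs, the SDH genes, ATP5IF1, the most abundant member of each complex and the readthroughs. Of each list, genes were taken from the 2 largest called rises and falls, with PPARGC1A, ESRRA, ESRRG, CYC1 and CYCS. Not all of these were given, so the named genes are not always the extremes of a list. Among those left out were the carrier genes ETFDH (rise, day 9 to day 90) and COQ3 and PDSS2 (falls, day 0 to day 3). NDUFS4, PDK1, MYH6, NOTCH3, the full lists of called regulators and the motifs fall outside this rule and were chosen after their values were seen. A relaxed and a narrower MEF2 form were searched before the usual consensus, which was chosen after seeing the data. Members and lists were chosen with earlier results of these data known.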

Additional observations from a re-analysis of the deposited data

Results flagged for a closer look

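In 48 groups of 5 wells checked (summed shares of all members and of each complex, and COX6A1, COX6A2, COX7A1, COX7A2, NDUFA4 and NDUFA4L2), 3 had a well far above the other 4, where chance gives about 1 in 20. A number of 3 in 48 is near that share. All 3 were day 7 replicate 10, and COX6A1 is part of the complex IV share, so they are not independent. Its complex I share was 0.580% against 0.509% in the next well, its complex IV share 0.547% against 0.454%, and its COX6A1 level 575 against 455 rescaled TPM. Day 7 entered none of the tested comparisons, although its wells share in the estimate of spread.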

How the results depend on the processing

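Day 3 against day 0: 2 members were called higher with the replicate block, the lane term, only the groups compared and both limma fits; called lower were 18 with the lane term, 59 with only the groups compared, 1 with limma on TPM and 45 with limma on rescaled TPM. The median was -0.32 with the lane term and -0.12 with limma on TPM. Day 9 against day 3: 21 were higher with no filter, 20 with the lane term and 1 with limma on TPM; 2 were lower with the replicate block and 20 with limma on TPM (median -0.35). Day 9 against day 0: 1 was higher with limma on TPM and 15 on rescaled TPM; 8 were lower with no filter, 20 with the replicate block and 26 with limma on TPM (median -0.40). Day 90 against day 9: 19 were higher with limma on TPM (median 0.32). Day 90 against day 30: 13 were higher with no filter, 51 with the replicate block (median 0.68), 7 with the lane term, 0 with only the groups compared, 40 with DESeq2 and 1 with limma on TPM; 1 was lower with DESeq2, 7 with limma on TPM (median -0.40) and 2 on rescaled TPM (median 0.23). With limma on deposited TPM the median of all genes moved by 0.23, -0.59, -0.38, -0.47 and -0.58 in these comparisons; the cause was not tested. The fit on rescaled TPM was chosen after seeing the data. With the lane term, 2641 of all genes were called lower for day 3 against day 0, against 2765 in the main fit. For day 9 against day 3, 3679 of all genes were called higher, against 3965. For day 90 against day 30 the number was 546, against 924.

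Wells were not treated as paired by replicate number. Same-numbered wells' deviations correlated at -0.02 to 0.15, and days 30 and 90 share no number. With so few wells these values cannot exclude pairing, and the replicate block moved some of the counts above.

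Under limma on TPM these changes turned. Day 9 against day 3: ATP5F1A -0.18, ATP5MC2 -0.61, COX4I1 -0.10, COX6A1 -0.24, COX6B1 -0.24, COX7A2 -0.25, COX7A2L -0.61 and SDHB -0.31. Day 90 against day 9: NDUFV2 -0.10. Day 90 against day 30: ATP5IF1 -0.31, COX4I1 -0.24, NDUFS7 -0.044, SDHC -0.26, SDHD -0.23 and UQCRH -0.76.

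Leaving out 1 well gave, for day 3 against day 0, 1 higher, 14 to 17 lower and a median of -0.47 to -0.34; for day 9 against day 3, 13 to 37, 1 and 0.26 to 0.43; for day 9 against day 0, 6 to 10, 8 to 21 and -0.14 to 0.02; for day 90 against day 9, 63 to 74, 1 and 0.78 to 0.96; for day 90 against day 30, 3 to 20, 0 to 1 and 0.41 to 0.55. Ratio differences for day 9 against day 0 and day 90 against day 9 were 4.40 to 4.85 and 1.21 to 2.06 (COX6A2 to COX6A1), -0.56 to -0.10 and 3.57 to 4.09 (COX7A1 to COX7A2), -1.34 to -0.92 and -1.03 to -0.30 (COX4I2 to COX4I1), and -1.86 to -1.51 and 5.20 to 5.60 (NDUFA4L2 to NDUFA4); with a well removed the exact test cannot reach 0.05. The COX4I2 ratio for day 9 against day 0 was -1.55 and -1.65 with pseudocounts of 0.1 and 0.01 and -0.47 on deposited TPM, and for day 90 against day 9 -0.70 on TMM-scaled CPM (exact permutation p = 0.0357). The NDUFA4L2 ratio for day 9 against day 0 was -0.66 on deposited TPM.

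Relative to day 0, the summed share as a share of all TPM was 1.35 (pluripotent), 1.13 (day 1), 0.916 (day 3), 0.650 (day 5), 0.673 (day 7), 0.738 (day 9), 0.927 (day 11) and 0.877 (day 90), and as a share of counts 1.17 (pluripotent), 0.747 (day 3), 0.950 (day 14) and 1.29 (day 90). Members at a few counts per well (COX4I2, COX6B2, and COX6A2 and COX7A1 before day 9) are limited by depth.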
